A study of Mus musculus with 6 samples.

Results

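The ion and metal solute carriers described here are the genes whose symbols place them in the Slc4, Slc8, Slc9, Slc12, Slc24, Slc26, Slc30 or Slc39 families. Slc4a1, Slc4a11, Slc12a2 and Slc26a5 match the same pattern and were left out by the rule, which left 69 of 34395 gene entries. Total RNA depleted of ribosomal RNA was sequenced from cochleae of C57BL/6J mice, basal part only, an inbred strain whose hearing loss begins early and at the cochlear base. The 3 young and 3 old libraries are labelled by age group alone, with neither the age nor the sex of the animals, and no allele or agent is named for either group. The labels do not say whether each library is a separate animal or a pool, so a p-value reflects no more than how these 6 libraries vary, which may be technical. Of the 69 members, 60 had enough counts to be tested.

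A cochlea works because its fluids hold unlike ions: endolymph is rich in potassium and poor in sodium and calcium, and its pH is kept by bicarbonate and proton transport. The Slc4 family moves bicarbonate, Slc26 exchanges chloride, bicarbonate, iodide and sulfate, and Slc9 exchanges sodium for protons at the surface and in endosomes. Slc12 proteins carry chloride together with potassium or sodium, and Slc8 and Slc24 proteins push calcium out of cells in exchange for sodium. Slc30 proteins (ZnT) move zinc or manganese out of the cytosol, into vesicles or out of the cell, and Slc39 proteins (ZIP) bring these metals in.

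The groups differed in more than the carriers. Gene counts added up to 37084017 to 39433584 in young and to 26245416 to 26839068 in old libraries. Xist, which coats the inactive X chromosome in females, had 384 to 515 CPM (counts relative to the library total, scaled by TMM as all CPM here) in young libraries and at most 0.302 in old ones, while the Y-linked Ddx3y had no counts in young libraries and up to 37.1 CPM in old ones. Age group and this sex-linked profile cannot be told apart. Summed CPM of marker lists moved as well, from 6670 to 9820 in young against 3540 to 3980 in old libraries for 7 marginal cell genes, and from 9760 to 12700 against 5310 to 6930 for 7 fibrocyte genes. Of 13 hair cell genes 12 were lower, with sums of 185 to 283 against 110 to 127 CPM, and of 9 neuron genes 8 were higher, with sums of 1330 to 2000 against 2660 to 3020 CPM. The neutrophil list had all 7 genes and the erythroid list all 9 genes lower. Central glia markers summed to 202 CPM in young 1 but to 43.7 and 23.8 CPM in young 2 and 3. In old libraries their sums were 7.34 to 12.8 CPM. Of the 7 marginal cell genes 6 fell and 1 rose. The muscle, endothelial, macrophage, Schwann cell and B lineage lists also each held at least 1 gene that rose and 1 that fell. In such tissue samples fewer cells of a type and less RNA per cell cannot be told apart, and the part of these shifts in the carriers' values was not tested unless a value is given beside them.

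Among the carriers, per transcript length (FPKM, which can be compared between genes), a potassium chloride cotransporter, pendrin, a bicarbonate carrier and a few zinc carriers were among the highest. Slc12a7 averaged 92.9 FPKM over the 6 libraries, Slc4a10 81.0 and Slc26a4 69.0. This order rests on means over both groups, and in young libraries Slc4a10 (114 FPKM) stood above Slc12a7 (88.0 FPKM). Slc39a7 (57.4 FPKM), Slc39a1 (48.3 FPKM) and Slc4a2 (35.9 FPKM) were lower. In the Slc8, Slc30 and Slc24 families the highest were Slc8a3 (25.8 FPKM), Slc30a9 (25.8 FPKM) and Slc24a2 (25.4 FPKM). Summed over all members the level was 973 ± 7.07 FPKM in young and 946 ± 5.23 FPKM in old libraries (SD, n = 3 per group).

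**Figure D1:**
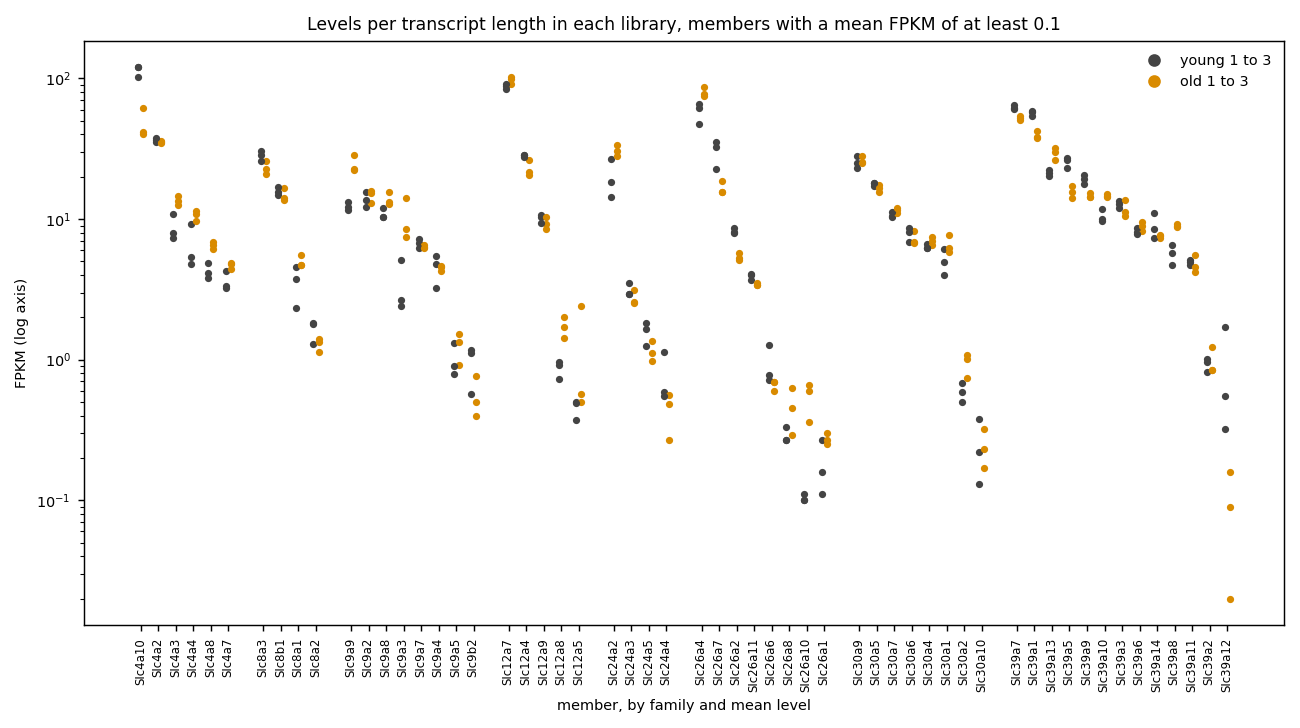
FPKM of each library (log axis) for 56 members with a mean of at least 0.1 FPKM, grouped by family and ordered by mean level, young in grey and old in orange; a library at 0 is not drawn. Slc12a7, Slc4a10 and Slc26a4 stand highest of those drawn, and the old values of Slc4a10 lie below its young values.

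In the comparison of old with young libraries 28 members fell and 10 rose, by edgeR's quasi-likelihood test on TMM-scaled counts with a Benjamini-Hochberg adjusted p under 0.05 over all 20157 genes tested. Of all genes tested, 27.3% fell and 26.9% rose, and of the protein-coding genes 34.7% fell and 19.7% rose. The median log2 fold change (old minus young) was -0.26 over the 60 members, 0.01 over all genes and -0.13 over coding genes. Falls of at least 2-fold that passed the test numbered 7, against 6.15% of all genes, and such rises 2, against 11.2%. Of the 15316 coding genes tested, 1134 had such a fall and 556 such a rise. For single genes the smallest p of an exact permutation test of 3 against 3 libraries is 0.1, so the p-values given come from the fit across genes.

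In CPM all old libraries lay below all young ones for 30 members and above them for 12, against 62.3% of all genes with either order. How many members fell depends on how libraries are scaled. With library totals alone 12 members fell and 17 rose, against 14.5% and 41.0% of all genes. The counts per family and partner list below for library totals alone are to be read beside these shares. That scaling moved the median of all genes to 0.287, against 0.014 with TMM, and the median of the members to 0.02. With TMM on protein-coding genes 20 fell and 12 rose, against 20.6% and 33.7%, and the median of all genes was 0.147. On log2(FPKM + 1) 11 fell and 15 rose, against 13.7% and 38.4%. These shares are of all genes. Coding genes fell more often and rose less often than all genes with TMM, and their shares under the other scalings were not computed. The same 11 members, among them Slc4a10, Slc8a3, Slc12a4, Slc26a2, Slc26a7, Slc39a1, Slc39a5, Slc39a7, Slc39a9 and Slc39a12, fell under all 4 scalings. The same 10, among them Slc4a3, Slc4a8, Slc9a3, Slc9a8, Slc9a9, Slc12a8, Slc26a10, Slc39a8 and Slc39a13, rose under all 4. None of the 60 fell under one of these scalings and rose under another. Leaving out 1 library at a time, all 11 that fell under every scaling passed in each of the 6 fits, but of the 10 that rose only Slc9a3, Slc9a9 and Slc26a10 did; without young 2 the count of members that rose was 3 and without old 2 it was 6.

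**Figure D2:**
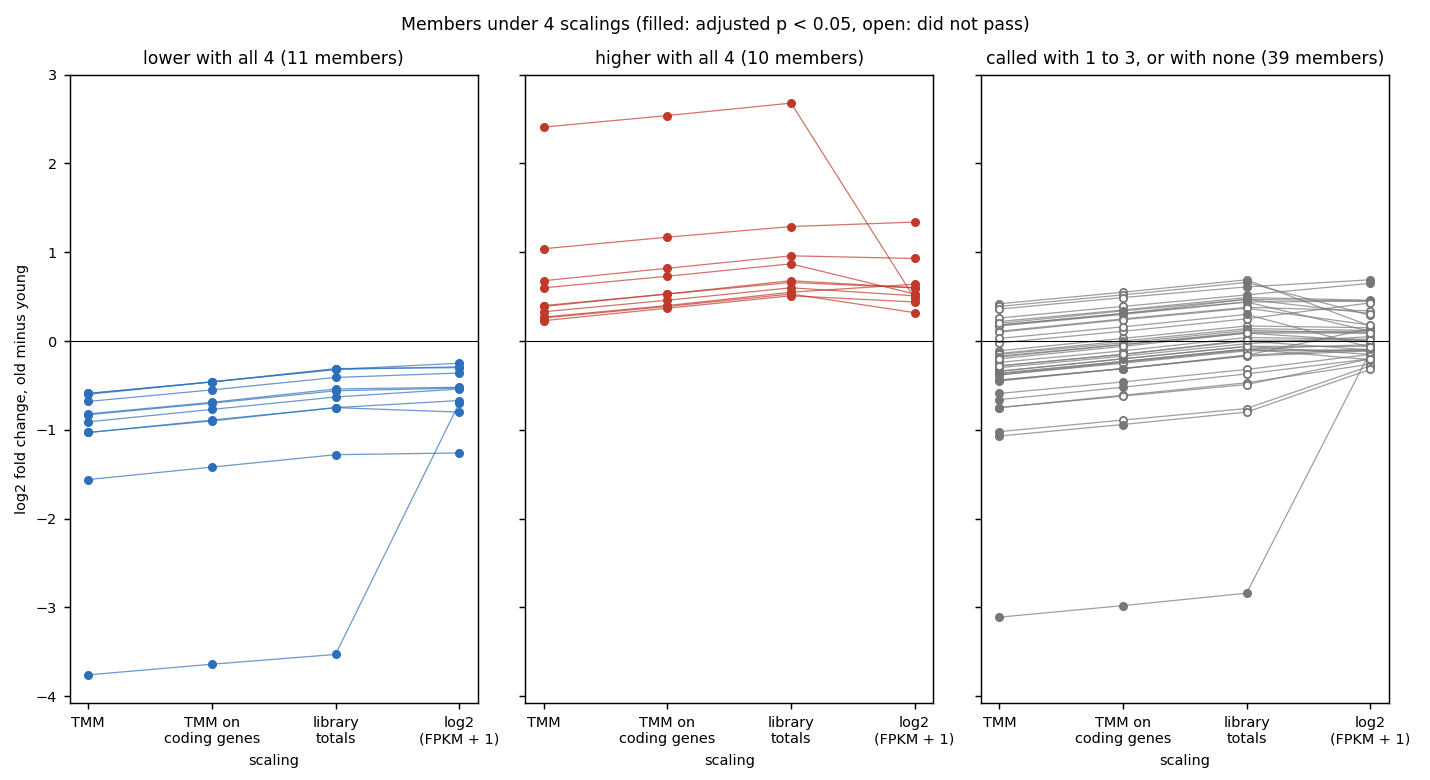
Log2 fold change (old minus young) of the 60 tested members under TMM, TMM on coding genes, library totals and log2(FPKM + 1), with filled points for an adjusted p under 0.05 and a line per member. The 11 members at left are below 0 and the 10 in the middle above 0 with each scaling, while many of the 39 at right cross 0; members with few counts shrink on the log2(FPKM + 1) scale because of the added 1.

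The bicarbonate carriers parted in direction. Of 7 tested Slc4 members 3 fell and 2 rose with TMM, beside 34.7% and 19.7% of coding genes. With library totals alone 2 fell and 4 rose. Slc4a10 (chromosome 2, 62046472 to 62326743, GRCm38.p6), a sodium-coupled bicarbonate carrier of neurons and choroid plexus, had 545, 677 and 711 CPM in young 1, 2 and 3 and 285, 189 and 184 CPM in old 1, 2 and 3. All old values were below all young ones, and old 1 was the highest of the old. The fitted difference was 2.94-fold lower in old libraries, a log2 fold change of -1.56 ± 0.17 (SE; edgeR adjusted p = 6.9e-05), and -1.28 with library totals alone. It ran beside the left-out Slc4a11, a fibrocyte marker of the same family, which fell from 2340 to 3270 CPM in young to 930 to 1300 CPM in old libraries (log2 fold change -1.44). The fibrocyte list, which includes Slc4a11, had 6 of 7 genes lower with TMM, beside 34.7% of coding genes, and 5 with library totals alone. None of its genes was at 0 in a group. Their part in the fall of Slc4a10 was not tested.

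Slc4a3 and Slc4a8 rose, and both calls were lost without young 2. Slc4a3, the anion exchanger of heart and neurons, had 46.5, 37.1 and 35.4 CPM in young and 49.5, 55.5 and 51.5 CPM in old libraries, a log2 fold change of 0.40 ± 0.11 (adjusted p = 0.0128). The groups did not overlap, but young 1 lay close to old 1, and without young 2, young 3 or old 2 the adjusted p was 0.0641, 0.0579 and 0.0567. Slc4a8, a sodium-driven chloride bicarbonate exchanger of neurons, had 51.2 to 58.7 CPM in young and 64.0 to 71.6 CPM in old libraries (log2 fold change 0.33 ± 0.09, adjusted p = 0.00857, or 0.0504 without young 2). Neuron markers rose as well, as given above. Slc4a10 (-1.56) and Slc8a2 (-0.66), also known from neurons, fell with TMM. Slc8a2 did not pass with library totals alone (adjusted p = 0.0993). The part of neuron content in these values was not tested. Slc4a7, a sodium bicarbonate cotransporter whose loss in mice harms hearing and sight, had 33.0, 27.7 and 28.1 CPM in young and 34.0, 34.2 and 34.1 CPM in old libraries. It did not pass with TMM (log2 fold change 0.20, adjusted p = 0.0911), but did with library totals alone (0.47, adjusted p = 0.00576). Leaving out young 1 it passed as well (0.26, adjusted p = 0.0222). Slc4a4, a further sodium bicarbonate cotransporter, behaved alike in the test, with 0.36 (adjusted p = 0.125), 0.61 with library totals alone (adjusted p = 0.0312) and 0.62 on leaving out young 1 (adjusted p = 0.000573).

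Slc4a2, the anion exchanger that osteoclasts and acid-secreting epithelia rely on, had 146, 160 and 174 CPM in young and 128, 128 and 124 CPM in old libraries. It fell with TMM (log2 fold change -0.34 ± 0.08, adjusted p = 0.00628) but did not pass with library totals alone (-0.06, adjusted p = 0.515). Of 4 tested osteoclast markers 3 were lower, with list sums of 48.0 to 55.8 CPM in young and 10.9 to 14.4 CPM in old libraries. Mmp9 alone made up 28.4 to 36.7 CPM of these sums in young and 3.94 to 6.85 CPM in old libraries. Atp6v0d2 did not pass (log2 fold change -0.30, adjusted p = 0.757). The list holds 4 further markers, Calcr among them, which had too few counts in both groups for a test. Slc4a5, a bicarbonate cotransporter of choroid plexus and kidney named here after its values were seen, had 54 counts over the young libraries and 5 over the old, all of them in old 2. Its log2 fold change of -3.11 (adjusted p = 0.00895) was -7.09 without old 2, and log2(FPKM + 1) gave no call (adjusted p = 0.104). Slc4a9 had 5 counts in all and was not tested.

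**Figure D3:**
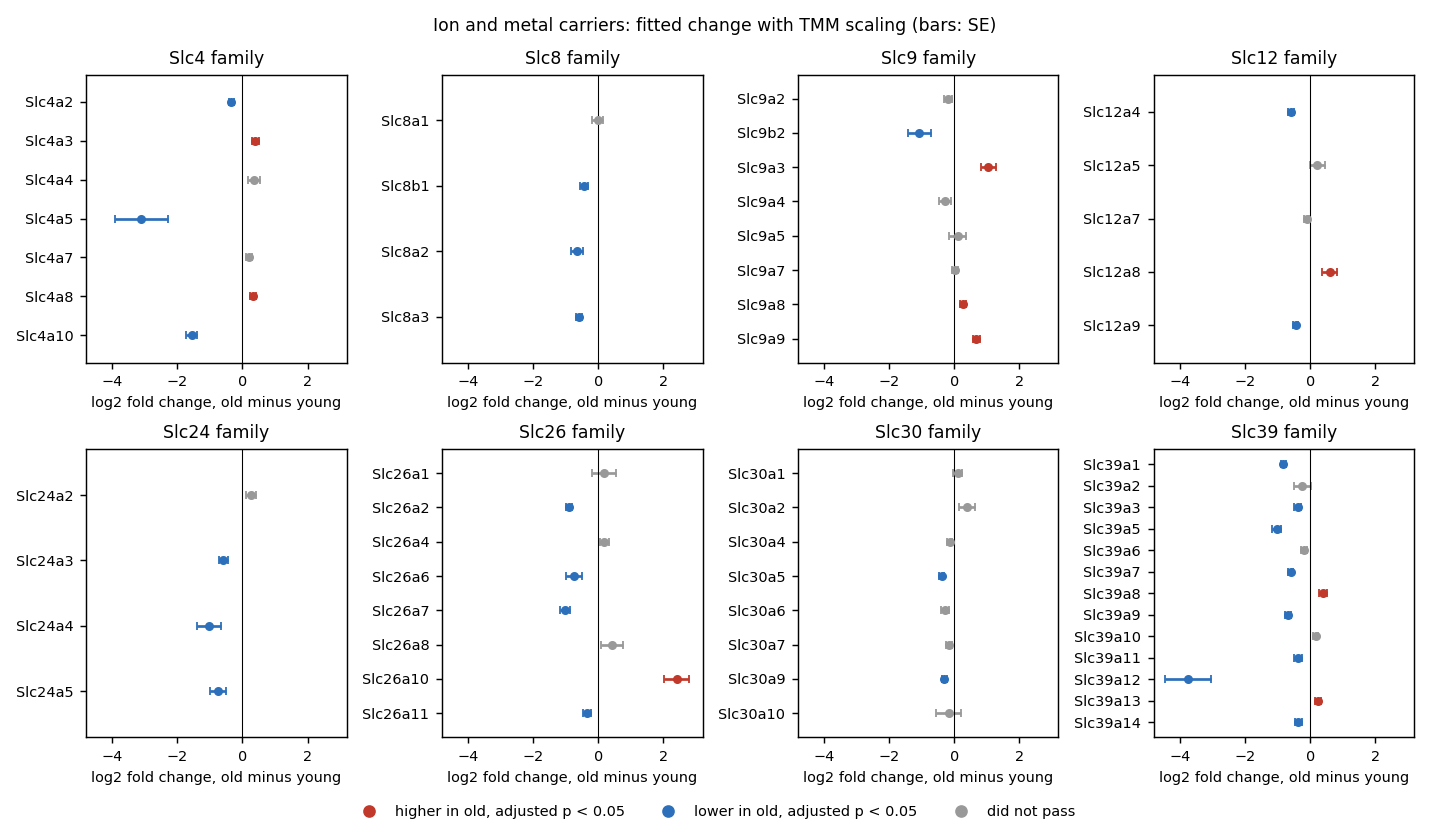
Log2 fold change (old minus young) with its SE for 57 tested members by family, TMM scaling, in blue where lower and in red where higher at an adjusted p under 0.05 and grey otherwise. Slc39a12 at -3.76, Slc4a5 at -3.11 and Slc4a10 at -1.56 lie farthest below 0 and Slc26a10 at 2.41 farthest above. Some points just below 0 lie above it with library totals alone.

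The anion exchangers of the Slc26 family held falls for sulfate and chloride carriers and no passed change for pendrin with TMM. Of 8 tested members 4 fell and 1 rose, beside 34.7% and 19.7% of coding genes, and scaling by totals alone gave 2 and 2. Slc26a4 (chromosome 12, 31519814 to 31560055), which encodes pendrin, the chloride, iodide and bicarbonate exchanger whose loss causes deafness with an enlarged vestibular aqueduct, had 144, 204 and 227 CPM in young and 212, 234 and 206 CPM in old libraries. Young 1 was low and the other 5 libraries overlapped; the log2 fold change was 0.18 ± 0.14 (adjusted p = 0.31) and -0.02 without young 1. With library totals alone it was 0.47 (adjusted p = 0.00907), and in FPKM each old library stood above each young one (79.5 against 58.4 FPKM on average), so that the scaling decides whether pendrin RNA passed. The outer sulcus and spindle cell markers Anxa1, Dpp10 and P2rx2 summed to 130, 165 and 171 CPM in young and to 168, 164 and 165 CPM in old libraries, again with young 1 lowest. Of these Dpp10 rose (0.62, adjusted p = 0.00199). P2rx2 had all old libraries above all young ones but did not pass (0.29, adjusted p = 0.0631), nor did Anxa1 (-0.22, adjusted p = 0.0803), and scaling by totals alone gave 2 that rose.

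Slc26a7 (chromosome 4, 14502430 to 14621946), a chloride and bicarbonate carrier known from stomach, kidney and thyroid, had 74.1, 103 and 116 CPM in young and 52.9, 46.9 and 43.7 CPM in old libraries. Each old value was below each young one, and the fitted difference was 2.04-fold (log2 fold change -1.03 ± 0.15, adjusted p = 0.000327; -0.75 with library totals alone). Slc26a2 (chromosome 18, 61196854 to 61211596), the sulfate transporter that cartilage needs to sulfate its proteoglycans, was tight within groups, with 33.0, 32.2 and 34.1 CPM in young and 17.5, 18.6 and 16.7 CPM in old libraries. It fell 1.88-fold (log2 fold change -0.91 ± 0.09, adjusted p = 5.0e-05; -0.63 with library totals alone). Of 7 osteoblast markers 6 were lower in old libraries as well, beside 34.7% of coding genes. They summed to 163, 179 and 359 CPM in young 1, 2 and 3 and to 46.3 to 55.2 CPM in old libraries. Their part in the fall of Slc26a2 was not tested.

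Slc26a10, a family member of uncertain function, was the member with the largest rise. It had 8, 7 and 7 counts in young 1, 2 and 3 and 33, 42 and 25 in old 1, 2 and 3, or 0.211 ± 0.0138 and 1.13 ± 0.272 CPM (SD, n = 3). No old library was as low as a young one, and the fitted difference was 5.3-fold (log2 fold change 2.41 ± 0.38, adjusted p = 0.000551). The gene (chromosome 10, 127171393 to 127180705) overlaps the coding gene B4galnt1 over 948 bases in RefSeq, and strandedness and the assignment of shared reads are not given, so its value is uncertain. Slc26a6, an oxalate and chloride exchanger, had 2.33 to 3.89 CPM in young and 1.59 to 1.85 CPM in old libraries (log2 fold change -0.75, adjusted p = 0.0289), and did not pass without young 1 (-0.53), old 2 or old 3 (adjusted p = 0.111, 0.0588 and 0.0676), nor with library totals alone. Slc26a11, a lysosomal sulfate and chloride carrier, had -0.34 (adjusted p = 0.0386) and missed the threshold without young 2, young 3, old 1 or old 2 (adjusted p = 0.0653, 0.108, 0.0803 and 0.0895) and with library totals alone (-0.06). Slc26a1 and Slc26a8 did not pass, Slc26a9 had 6 counts in all, and the chloride-losing diarrhoea gene Slc26a3 had none in any library.

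**Figure D4:**
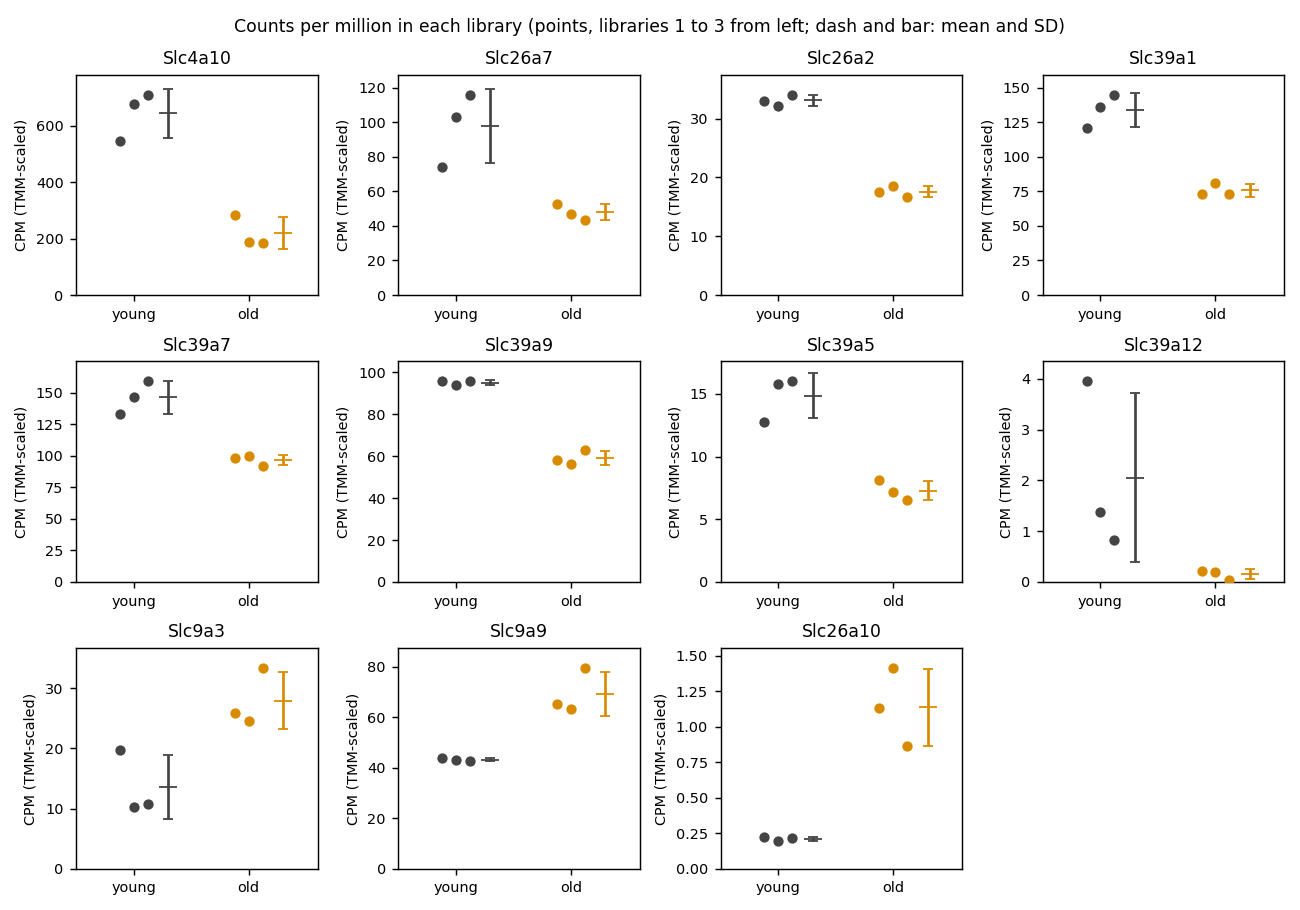
TMM-scaled CPM in each library (points, libraries 1 to 3 from left) with mean and SD for 11 members that fell or rose under all 4 scalings. Old lies below young in 8 panels and above it in those of Slc9a3, Slc9a9 and Slc26a10; young 1 is high for Slc39a12 and Slc9a3.

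Of 10 sodium proton exchangers of the Slc9 family tested, 4 rose and 2 fell. Of coding genes 19.7% rose and 34.7% fell, and of all genes 26.9% and 27.3%. Scaling by totals alone gave 5 and 1, near the 41.0% and 14.5% of all genes, and without young 2 the TMM counts were 2 and 2. Slc9a3 (chromosome 13, 74086255 to 74169442), the apical exchanger known from kidney and gut, had 19.8, 10.3 and 10.7 CPM in young and 25.9, 24.5 and 33.3 CPM in old libraries. Young 1 stood above the other young libraries but below each old one. The rise was 2.05-fold (log2 fold change 1.04 ± 0.23, adjusted p = 0.00402), and between 0.86 and 1.38 when 1 library was left out. RefSeq places part of the noncoding Gm41003 within its span. Slc9a9 (chromosome 9, 94669557 to 95230453), an exchanger of recycling endosomes, had 43.8, 43.2 and 42.5 CPM in young and 65.2, 63.3 and 79.4 CPM in old libraries. The young values were nearly the same and all old values lay above them (1.61-fold, log2 fold change 0.68 ± 0.10, adjusted p = 0.000311; 0.96 with library totals alone).

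Slc9a8, a Golgi exchanger, had 57.2 to 63.8 and 68.0 to 77.9 CPM (log2 fold change 0.26, adjusted p = 0.0267), and lost its call on leaving out young 2, young 3 or old 2 in turn (adjusted p = 0.133, 0.0992 and 0.111). The adaptor gene Slc9a3r1, whose product anchors Slc9a3 at apical membranes, was higher too (log2 fold change 0.37, adjusted p = 0.0173), and Chp1, whose product binds and activates the surface exchangers, was lower (-0.78, adjusted p = 4.24e-05, -0.50 with library totals alone).

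Slc9a7 (chromosome X, 20098851 to 20292035), a trans-Golgi exchanger, had 54.1, 45.6 and 45.6 CPM in young and 50.3, 49.0 and 49.4 CPM in old libraries, and did not pass (log2 fold change 0.03, adjusted p = 0.773; 0.30 with library totals alone, adjusted p = 0.0388). Whether the values of this X-linked gene follow age or the sex-linked profile cannot be told apart. Slc9b2, a proton exchanger abundant in osteoclasts, had 2.46, 1.35 and 2.59 CPM in young and 0.926, 1.37 and 0.726 CPM in old libraries. Young 2 and old 2 overlapped; the log2 fold change was -1.07 (adjusted p = 0.0237), and the adjusted p was 0.0593, 0.0767, 0.0657 and 0.0708 on leaving out young 1, young 3, old 1 or old 3 in turn and 0.08 with library totals alone. Slc9a2, Slc9a4 and Slc9a5 did not pass, although Slc9a2 and Slc9a4 did without young 1 (adjusted p = 0.0129 and 0.00745). Slc9b1 had 4 counts in all.

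The potassium chloride cotransporter with the highest level differed little. Of 6 tested Slc12 members 3 fell and 1 rose, beside 34.7% and 19.7% of coding genes, and scaling by totals alone gave 1 and 1. Slc12a7 (chromosome 13, 73733052 to 73816754), which encodes KCC4 and is needed for hearing in mice, had 448, 453 and 519 CPM in young and 417, 443 and 458 CPM in old libraries. The groups overlapped and the difference did not pass (log2 fold change -0.11 ± 0.08, adjusted p = 0.304; 0.17 with library totals alone, adjusted p = 0.0807), while in FPKM each old library stood above each young one (97.8 against 88.0 FPKM on average). Slc12a4, the widely expressed KCC1, had 107, 111 and 118 CPM in young and 86.3, 66.7 and 70.0 CPM in old libraries and fell 1.51-fold (log2 fold change -0.59 ± 0.10, adjusted p = 0.000949; -0.31 with library totals alone). Slc12a9, a family member without agreed transport, fell with TMM (-0.45, adjusted p = 0.00151) and had -0.17 with library totals alone (adjusted p = 0.141).

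Slc12a8, at low level, had 1.99, 1.97 and 1.76 CPM in young and 2.30, 3.05 and 3.32 CPM in old libraries (log2 fold change 0.60 ± 0.23, adjusted p = 0.0463). Its adjusted p was 0.08 to 0.139 without young 1, young 2, young 3, old 2 or old 3. The neuronal cotransporter Slc12a5 did not pass, and the kidney cotransporters Slc12a1 and Slc12a3 had 7 and 12 counts in all. Of 12 partner genes of chloride cotransport 4 rose and 3 fell, beside 19.7% and 34.7% of coding genes. Scaling by totals alone gave 8 and 2. The kinase genes Stk39 (log2 fold change 0.58, adjusted p = 0.00019), Wnk2 (0.40, adjusted p = 0.00209) and the ubiquitin ligase adaptor Klhl3 (0.66, adjusted p = 0.00595) rose, and the sodium potassium chloride cotransporter Slc12a2 of the stria (-0.71), which the rule left out, fell. Bsnd, a chloride channel subunit gene, fell with TMM (-0.40) but not with library totals alone (-0.12, adjusted p = 0.412).

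The calcium exchangers tended to lower values with TMM, and 1 of them fell under each scaling. Of 4 Slc8 members 3 fell and none rose, beside 34.7% and 19.7% of coding genes, and scaling by totals alone gave 1 and 0. Slc8a3 (chromosome 12, 81197915 to 81333732), the NCX3 exchanger of brain and muscle, had 133, 150 and 135 CPM in young and 104, 87.5 and 85.1 CPM in old libraries and fell 1.51-fold (log2 fold change -0.59 ± 0.10, adjusted p = 0.000615; -0.32 with library totals alone). Slc8a2, a neuronal exchanger, had 6.49, 9.66 and 9.59 CPM in young and 6.04, 4.63 and 5.67 CPM in old libraries (-0.66 ± 0.19, adjusted p = 0.0142). Young 1 lay near old 1, and the call was lost without young 2 or old 2 (adjusted p = 0.0607 and 0.0576) and with library totals alone (adjusted p = 0.0993). Slc8b1, the mitochondrial sodium calcium exchanger, fell with TMM (-0.44 ± 0.11, adjusted p = 0.00677) and had -0.16 with library totals alone (adjusted p = 0.19). Slc8a1, the cardiac NCX1, had 12.7 to 21.1 CPM in young and 15.8 to 17.5 CPM in old libraries and did not pass. Of 6 partner genes of mitochondrial calcium uptake 3 fell, among them Mcu and Smdt1, and Micu3 rose, beside 34.7% and 19.7% of coding genes. Library totals alone gave 2 and 2.

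Of 4 tested Slc24 members, which also carry potassium out with calcium, 3 fell and none rose, beside 34.7% and 19.7% of coding genes. Scaling by totals alone gave 0 and 1. Slc24a2 (chromosome 4, 86983124 to 87230652), the NCKX2 exchanger of neurons and cones, had 280, 207 and 167 CPM in young and 245, 250 and 284 CPM in old libraries. Young 1 lay among the old libraries, and the log2 fold change of 0.26 ± 0.16 (adjusted p = 0.194) became 0.45 once young 1 was left out (adjusted p = 0.00373) and 0.52 with library totals alone (adjusted p = 0.0367); in FPKM each old library stood above each young one. Slc24a3 had 11.7, 10.7 and 11.4 CPM in young and 8.61, 6.87 and 6.88 CPM in old libraries and fell with TMM (-0.59 ± 0.14, adjusted p = 0.00459), but not with library totals alone (-0.32, adjusted p = 0.0839). Slc24a5, the exchanger of melanosomes, had 2.99, 2.41 and 3.65 CPM in young and 1.54, 2.11 and 1.73 CPM in old libraries (-0.75 ± 0.24, adjusted p = 0.0252). It lost its call on leaving out young 3, old 1 or old 3 in turn (adjusted p = 0.0958, 0.0706 and 0.0522) or with library totals alone (adjusted p = 0.134). Melanocyte markers were lower for 4 of 7, with sums of 1460 to 1590 CPM in young and 968 to 1110 CPM in old libraries. Slc24a4, needed for enamel, had 3.41, 1.82 and 1.80 CPM in young and 0.720, 1.48 and 1.28 CPM in old libraries (-1.02 ± 0.36, adjusted p = 0.0341); without young 1, old 1 or old 3 the values were -0.67, -0.77 and -1.10 (adjusted p = 0.141, 0.104 and 0.0571). Slc24a1, the rod exchanger, had 2 counts in all.

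Of 13 zinc importers tested in Slc39, the largest of the families, 8 fell and 2 rose, beside 34.7% and 19.7% of coding genes. Scaling by totals alone gave 5 and 3. Slc39a1 (chromosome 3, 90248190 to 90253613), a surface importer, had 121, 136 and 145 CPM in young and 73.1, 80.9 and 73.0 CPM in old libraries. No old value reached a young one (1.77-fold lower, log2 fold change -0.82 ± 0.09, adjusted p = 6.9e-05; -0.54 with library totals alone). Slc39a9 (chromosome 12, 80643883 to 80683342), of the Golgi, had 95.7, 93.8 and 95.7 CPM in young and 58.3, 56.2 and 62.9 CPM in old libraries (-0.68 ± 0.08, adjusted p = 7.8e-05; -0.41 with library totals alone). Slc39a7 (chromosome 17, 34028266 to 34031690), which releases zinc from the endoplasmic reticulum, had 133, 147 and 159 CPM in young and 98.2, 100 and 92.2 CPM in old libraries (-0.60 ± 0.08, adjusted p = 0.000292; -0.32 with library totals alone). Slc39a5 (chromosome 10, 128395927 to 128401276), a basolateral importer of gut and pancreas, had 12.8, 15.8 and 16.0 CPM in young and 8.10, 7.21 and 6.57 CPM in old libraries (2.04-fold lower, log2 fold change -1.03 ± 0.14, adjusted p = 0.000239; -0.75 with library totals alone). Counts and FPKM imply an effective length of 508 to 535 bases for Slc39a5, so that its FPKM is high for its counts. In these 4 importers each old library lay below each young one.

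Slc39a12 (chromosome 2, 14388316 to 14494977), a zinc importer found mainly in brain, had the widest difference of the members. It had 141, 49 and 27 counts in young 1, 2 and 3 and 6, 6 and 1 in old 1, 2 and 3, or 3.95, 1.38 and 0.822 CPM against 0.206, 0.201 and 0.0346 CPM. The log2 fold change was -3.76 ± 0.71 (adjusted p = 0.00155), and -2.89 once young 1 was left out (adjusted p = 0.00265). The central glia markers Mog, Mobp, Opalin and Gfap summed to 202, 43.7 and 23.8 CPM in young 1, 2 and 3 and to 7.34 to 12.8 CPM in old libraries, with all 3 tested ones lower; Opalin had too few counts in both groups for a test. Their part in the fall of Slc39a12 was not tested.

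Slc39a8, an importer of zinc, manganese and cadmium, had 13.5, 16.2 and 18.4 CPM in young and 21.6, 21.4 and 20.3 CPM in old libraries and rose (0.39 ± 0.12, adjusted p = 0.0219; 0.68 with library totals alone). Its adjusted p was 0.0643, 0.0668, 0.0676 and 0.0657 without young 1, young 2, old 1 or old 2. Slc39a13, a zinc carrier of the secretory pathway that connective tissue needs, rose from 50.1 to 57.8 CPM to 58.2 to 66.3 CPM (0.23 ± 0.09, adjusted p = 0.0474), and did not pass without young 1, young 2, old 1 or old 3 (adjusted p = 0.115, 0.208, 0.108 and 0.168). Slc39a10 rose only with other scalings (0.17, adjusted p = 0.0927; 0.44 with library totals alone, adjusted p = 0.00195). Slc39a3 (-0.38, adjusted p = 0.0121), Slc39a11 (-0.37, adjusted p = 0.0334) and Slc39a14 (-0.36, adjusted p = 0.0275), importers of surface, Golgi and liver, fell with TMM and had -0.11, -0.09 and -0.09 with library totals alone. Slc39a11 lost its call without young 2, young 3, old 1 or old 2 (adjusted p = 0.0605, 0.0859, 0.099 and 0.0942) and Slc39a14 without old 1, old 2 or old 3 (adjusted p = 0.0676, 0.0767 and 0.0547). Slc39a2 and Slc39a6 did not pass, the latter with adjusted p = 0.0398 without young 1, and the acrodermatitis gene Slc39a4 had 33 counts in all.

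Of 8 zinc exporters of the Slc30 family tested, 2 fell and none rose with TMM, beside 34.7% and 19.7% of coding genes. With library totals alone 0 fell and 1, Slc30a2, rose (0.66, adjusted p = 0.0443). Slc30a5, which loads zinc into the Golgi, had 56.5, 59.4 and 59.5 CPM in young and 48.2, 41.9 and 45.0 CPM in old libraries (-0.38 ± 0.08, adjusted p = 0.00359; -0.10 with library totals alone). Slc30a9 (chromosome 5, 67306955 to 67356142), of mitochondria, had 89.4, 83.0 and 80.8 CPM in young and 68.1, 64.3 and 73.4 CPM in old libraries (-0.30 ± 0.08, adjusted p = 0.0112; -0.03 with library totals alone and 0.05 on log2(FPKM + 1)). Slc30a4, which fills vesicles with zinc, had 36.1, 35.9 and 37.7 CPM in young and 31.6, 35.2 and 32.9 CPM in old libraries and did not pass (-0.14, adjusted p = 0.189; 0.14 with library totals alone). Slc30a1, the surface exporter, had 32.2, 27.5 and 23.4 CPM in young and 28.7, 34.7 and 26.7 CPM in old libraries, which overlapped (0.11, adjusted p = 0.499). Slc30a6, which passed without young 1 (-0.37, adjusted p = 0.0339), Slc30a7 and the manganese exporter Slc30a10 did not pass either, and the synaptic vesicle gene Slc30a3 had 9 counts in all.

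Zinc itself turns on some of these genes through the metal response element, which binds the zinc sensor Mtf1, and promoter windows of 3 exporters are shown because they carry the core of this motif more than once. Windows from 250 bases before to 50 after a transcript start (RefSeq, GRCm38.p6) were searched on both strands for the element's core, TGCACNC or TGCGCNC. Windows were at hand for 56 members, among them 9 Slc30 and 11 Slc39 genes. At least 2 matches were found in 4 Slc30 genes and in 0 Slc39 genes, against 7.11% of the 32851 windows searched, and at least 1 in 6 and 5 genes, against 25.7% of all windows. A gene with more than 1 window was counted by the window with the most matches. The shares are of single windows and not of genes. Over all 56 members 6 held at least 2: Slc30a1, Slc30a2, Slc30a4 and Slc30a10, none of which passed with TMM, and Slc4a2 and Slc24a3, which fell with TMM. The window of Slc30a2 lies wholly inside the gene's span, downstream of its first base, and is not shown. The transcript start used for Slc30a1 also lies downstream of the first base of its span, so its window holds bases on both sides of that base. The other windows are printed on the strand of the gene, with the matches in capitals. In that of Slc30a10 a match on each strand overlaps.
Slc30a1, chr1:191906531-191906830, plus strand: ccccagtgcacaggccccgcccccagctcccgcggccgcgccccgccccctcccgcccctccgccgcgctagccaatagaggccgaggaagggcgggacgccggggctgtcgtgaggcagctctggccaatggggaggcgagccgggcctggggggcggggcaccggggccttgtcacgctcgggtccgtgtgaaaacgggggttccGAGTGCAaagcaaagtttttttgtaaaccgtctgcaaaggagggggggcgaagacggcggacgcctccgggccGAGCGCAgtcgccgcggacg
Slc30a4, chr2:122702614-122702913, minus strand: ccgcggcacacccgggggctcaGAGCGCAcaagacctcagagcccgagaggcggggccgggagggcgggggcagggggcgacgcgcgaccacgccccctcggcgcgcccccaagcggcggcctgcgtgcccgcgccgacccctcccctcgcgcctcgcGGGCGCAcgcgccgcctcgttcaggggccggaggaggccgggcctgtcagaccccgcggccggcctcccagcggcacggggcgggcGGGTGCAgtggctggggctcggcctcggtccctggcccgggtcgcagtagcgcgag
Slc30a10, chr1:185454598-185454897, plus strand: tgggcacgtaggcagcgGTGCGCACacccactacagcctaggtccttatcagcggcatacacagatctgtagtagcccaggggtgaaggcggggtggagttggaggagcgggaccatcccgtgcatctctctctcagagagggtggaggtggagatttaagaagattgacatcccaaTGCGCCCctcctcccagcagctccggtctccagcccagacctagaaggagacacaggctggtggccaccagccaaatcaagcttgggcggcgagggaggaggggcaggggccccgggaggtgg

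The metallothionein genes, which the same element controls and whose products bind zinc, were set beside these exporters. The windows of Mt1 and Mt2 held 3 and 4 matches. Mt1 had 92.4 to 112 CPM in young and 85.7 to 98.3 CPM in old libraries (log2 fold change -0.18, adjusted p = 0.122), and Mt2 had 34.0 to 53.2 and 28.8 to 41.0 CPM (-0.28, adjusted p = 0.193). Mtf1 did not pass (-0.08, adjusted p = 0.619). Of the 5 zinc partner genes Mt3 fell with TMM (-0.24, adjusted p = 0.0354, 0.04 with library totals alone) and the vesicle zinc carrier Tmem163 rose (0.47, adjusted p = 0.0333, 0.73 with library totals alone). A motif match is a description of these letters and not a measured site.

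Of 13 tested partner genes of bicarbonate and proton transport 6 fell and 2 rose with TMM, beside 34.7% and 19.7% of coding genes, and scaling by totals alone gave 5 of each. The carbonic anhydrase genes Car2 (-0.51, adjusted p = 0.00193) and Car14 (-0.65, adjusted p = 0.00198), whose products make bicarbonate for these carriers, fell with both scalings, with -0.23 and -0.37 for library totals alone. So did Ahcyl1 (-0.69) and Ahcyl2 (-0.70), whose products bind and activate sodium bicarbonate cotransporters, with -0.42 and -0.43. Car12 fell with TMM (-0.28, adjusted p = 0.011) but not with library totals alone (adjusted p = 0.964), and Car4, at 0.122 to 0.420 CPM in young and 0.652 to 0.795 CPM in old libraries, rose (1.20, adjusted p = 0.0467). The ionocyte regulator Foxi1 had too few counts in both groups for a test.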

How the data were processed

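The authors deposited estimated counts per gene and library and FPKM values (levels per transcript length and depth), per the file headers. The submitters' processing notes name GRCm38.p6; the sources used here give no aligner, quantifier, annotation or strandedness. Of 42623 entries 8228 circular RNAs, which have no FPKM, were left out. Of the 34395 gene entries 28251 were matched to the RefSeq table of the same build, and 20.2% of count values were not whole. After rounding, old and young counts were tested in edgeR 4.0.16 under R 4.3.3 (filterByExpr by group, TMM, quasi-likelihood F test, Benjamini-Hochberg over all genes tested, adjusted p under 0.05). The SE is the log2 fold change over the root of F. Limma 3.58.1 and DESeq2 1.42.0 served in alternatives, with summaries in pandas 2.3.3 (Python 3.11.15) and plots in matplotlib 3.10.9; the fit was tested on simulated data. Partner and marker lists and members were chosen with earlier results of these data known. Values per library are given for members that passed with at least a 2-fold change, the 2 next largest calls and the highest FPKM of each family where calls had to average 1 CPM or more in whichever group was higher, and 7 hearing genes; others are given by range, count or fitted value. TMM factors ran from 0.863 to 0.964 in young and 1.09 to 1.11 in old libraries. Promoter windows of chromosome 18 were not searched. Some members and partner genes are counted but not named or drawn, and their values are not reported here.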

Additional observations from a re-analysis of the deposited data

How the results depend on the processing

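Scaling moved the count of lower members most, and leaving out young 2 that of higher members, from 10 to 3. In place of 28 lower and 10 higher members, library totals alone gave 12 and 17, log2(FPKM + 1) 11 lower and log2(FPKM + 0.1) 12 lower, and library totals without the most counted unnamed feature, an alternative chosen after seeing the data, gave 17 lower. An adjusted p under 0.01 left 18 lower and 5 higher. DESeq2, limma-voom, DESeq2 size factors, no filter and a mean count of at least 50 kept both counts within 1.5 times. Without 1 library at a time, between 22 and 29 members were lower, between 3 and 10 higher, and between 8438 and 11221 genes passed. The labels do not say whether the library numbers pair the samples. Correlations of deviations from the group means were -0.082, 0.026 and -0.057 for like-numbered libraries and -0.058 to 0.12 for the others. They showed no shared deviation but cannot settle whether libraries were handled in pairs. With the replicate block 24 members were lower and 7 higher, and 9939 genes passed.

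Of the 60 tested members 16 changed sign in at least 1 of 17 refits, of which 2, among them Slc30a9, had passed. On log2(FPKM + 1) and log2(FPKM + 0.1) the values were 0.15 and 0.15 for Slc12a7, 0.12 and 0.14 for Slc30a4, 0.05 and 0.05 for Slc30a9 and -0.07 and -0.08 for Slc9a7. With library totals alone Slc12a7 had 0.17 and Slc30a4 0.14, without the most counted unnamed feature 0.07 and 0.04, and with TMM on coding genes Slc12a7 had 0.03. Leaving out 1 library at a time gave -0.02 (without young 1) to 0.29 for Slc26a4, -0.02 (without young 3) to 0.21 for Slc30a1, also below 0 without old 2, and -0.03 (without young 3) to 0.09 for Slc9a7, also below 0 without young 2. The cause was not tested. With 3 libraries per group, members under about 1 CPM rest on few counts.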

Other observations

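The effective length implied by counts and FPKM differed between the groups for some members. Over 16668 genes with at least 0.3 FPKM in each library its log2 ratio of old to young had a median of -0.01, with a 5th percentile of -0.22 and a 95th of 0.19. Slc9a7 had 7284, 6079 and 6307 bases in young and 8623, 8399 and 8678 bases in old libraries, a log2 ratio of 0.39 that exceeded those of 98.2% of the genes. Slc8a1 had -0.26 and Slc12a5 -0.26, each below the 5th percentile. For Slc12a5 old 3 stood alone, with 1486 bases against 4072 to 5627 in the other libraries. These values come from the authors' quantification, and what moved them was not tested.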
